A study of Mus musculus with 9 samples.

Results

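Inflammasome sensors and effectors were described in microglia, the brain's resident phagocytes, from adolescent mice given ethanol or saline soon after birth. The set held 7 of the 45664 gene symbols in the table. These were the sensors Nlrp3, Nlrp1b, Nlrc4 and Aim2, the adaptor Pycard, and the inflammatory caspases Casp1 and Casp4. They were taken by symbol, with earlier results of these data known, and all 7 were found. Levels were taken in all 9 libraries, and ethanol was compared with saline with and without the library ethanol 2.

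The ethanol group was 4 male C57BL/6 mice that received ethanol under the skin of the back, at 1.8 g per kg in a 20% v/v solution. It was given in 2 injections a day 2 h apart, 3.6 g per kg a day, from postnatal day 4 to postnatal day 9. The saline group was 5 male C57BL/6 mice that received an equal volume of saline on the same days. Ethanol 1 to 4 were 35, 35, 30 and 30 days old at collection, and saline 1 to 5 were 36, 30, 35, 29 and 30 days old. Ethanol 1, ethanol 2, saline 1 and saline 3 are called older here, and the other 5 mice younger. Every mouse gave 1 library, from live cells of the visual cortex of both hemispheres that were positive for CD11b and low for CD45. The mice came from 3 litters. The sources used here do not say which litter each mouse came from, so litter cannot be told apart from treatment or from age. Ethanol 1, ethanol 2, saline 3 and saline 4 share a suffix in their library names. Ethanol 3, ethanol 4, saline 2 and saline 5 share another, and saline 1 has a suffix of its own. What the suffix stands for is not stated, and apart from saline 4 it follows the split by age.

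Inflammasomes are protein platforms of the innate immune system that form in the cytosol. A sensor that meets its trigger assembles with the adaptor ASC, the product of Pycard, and recruits the protease caspase-1, which matures the cytokines interleukin-1β and interleukin-18 and cuts gasdermin D into a pore-forming fragment. In the brain, microglia are a main site of this pathway, and the abundance of a transcript says nothing of whether the platform was assembled.

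Ethanol libraries held 12816198 to 23723166 counts and saline libraries 18016777 to 28859244. The label of the sorted cells was checked against markers. The summed level of 10 microglial markers was 60100 to 71200 CPM (counts at a shared library size, TMM-scaled) in ethanol mice and 59800 to 68800 CPM in saline mice. Of 12 markers of monocytes and neutrophils, S100a8, S100a9, Retnlg and Elane were at 0 in all 9 libraries, and the sum was 4.92 to 16.0 CPM in ethanol mice and 4.69 to 8.05 CPM in saline mice, most of it Ccr2. Of 8 lymphocyte markers, 5 were at 0 throughout, and the sum was 0 CPM in every ethanol mouse and at most 0.517 CPM in saline mice. Markers of border macrophages summed to 39.1 to 91.3 CPM in ethanol mice and 48.4 to 81.7 CPM in saline mice, nearly all from Mrc1. Oligodendrocyte markers summed to 230 to 262 CPM in ethanol mice and 198 to 258 CPM in saline mice. Markers of endothelial cells and pericytes summed to 59.5 to 79.6 CPM in ethanol mice and 69.0 to 87.5 CPM in saline mice. Neuron markers summed to 14.5 to 38.2 CPM in ethanol mice and 2.19 to 24.4 CPM in saline mice. The library ethanol 2 stood apart from the rest. Of 8480 genes with a mean of at least 10 CPM, 703 were more than 2-fold below the mean of the other libraries in ethanol 2, against 1 to 44 genes in each of the other 8. Saline 1 was the library with 44 such genes, and its astrocyte markers summed to 3.76 CPM. That was the low end of the saline range, which reached 156 CPM, against 62.4 to 176 CPM in ethanol mice.

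The 250 bases in front of an annotated start are shown for Nlrp3, Nlrp1b, Casp4, Aim2 and Pycard. Among these, levels varied most between libraries for Nlrp3, Nlrp1b and Casp4, and less for Aim2 and Pycard. The sequences are those of RefSeq on GRCm38.p6, which held all 7 members, written 5′ to 3′ on the strand of the gene. Capitals mark the motif GAGGAAG or its reverse complement CTTCCTC, the core bound by PU.1, a transcription factor on which microglia depend. For Nlrp3 the second of 2 listed starts is shown because the motif was found there, and for Nlrp1b and Casp4 the first of 2. The listed start of Aim2 lies inside the gene span given below, which comes from another annotation.
Nlrp3, chr11:59542436-59542685, plus strand: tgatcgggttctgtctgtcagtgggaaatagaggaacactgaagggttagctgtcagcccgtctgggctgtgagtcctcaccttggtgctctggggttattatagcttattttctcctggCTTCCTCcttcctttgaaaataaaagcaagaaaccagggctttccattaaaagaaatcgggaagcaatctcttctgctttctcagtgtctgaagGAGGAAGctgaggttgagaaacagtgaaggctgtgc
Nlrp1b, chr11:71230734-71230983, minus strand: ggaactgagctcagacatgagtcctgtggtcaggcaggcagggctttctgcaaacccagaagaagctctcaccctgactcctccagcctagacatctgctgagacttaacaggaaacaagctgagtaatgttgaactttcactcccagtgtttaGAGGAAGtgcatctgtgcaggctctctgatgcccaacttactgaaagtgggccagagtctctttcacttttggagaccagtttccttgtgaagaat
Aim2, chr1:173420354-173420603, plus strand: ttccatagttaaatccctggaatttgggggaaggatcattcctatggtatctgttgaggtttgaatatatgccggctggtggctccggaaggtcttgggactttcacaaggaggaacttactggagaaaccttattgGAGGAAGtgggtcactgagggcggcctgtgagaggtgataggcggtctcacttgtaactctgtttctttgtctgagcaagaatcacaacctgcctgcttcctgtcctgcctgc
Pycard, chr7:127993868-127994117, minus strand: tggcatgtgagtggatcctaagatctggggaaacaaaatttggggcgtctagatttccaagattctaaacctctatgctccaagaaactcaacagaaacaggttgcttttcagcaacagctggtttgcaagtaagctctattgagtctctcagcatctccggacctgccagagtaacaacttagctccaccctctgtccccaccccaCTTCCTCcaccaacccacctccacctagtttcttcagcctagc
Casp4, chr9:5308599-5308848, plus strand: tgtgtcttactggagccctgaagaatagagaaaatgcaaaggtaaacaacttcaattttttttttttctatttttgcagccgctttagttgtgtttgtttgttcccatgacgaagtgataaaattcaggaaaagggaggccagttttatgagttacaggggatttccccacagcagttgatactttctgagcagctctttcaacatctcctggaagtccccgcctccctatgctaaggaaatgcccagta

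The motif was searched on both strands, and the matches do not overlap one another. With any listed start counted, it was found in front of 4 of the 7 members, Nlrp3, Nlrp1b, Aim2 and Pycard, and in front of 12% of the 27025 genes in the promoter table. The first start of Nlrp3 and the second of Nlrp1b held no match. Nlrp3 held 2 matches, at positions -130 to -124 and -36 to -30 from the start. The match of Nlrp1b lay at -96 to -90, that of Aim2 at -113 to -107 and that of Pycard at -43 to -37. The letters were not in the windows of Nlrc4, Casp1 or Casp4. A match is a run of letters and not a measured binding site.

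The members differed in level far more than the groups did. Levels between genes were compared as CPM per kb of the longest consensus transcript, averaged over the 9 libraries. Pycard was highest, at 39.1 ± 3.79 CPM per kb (SD, n = 9). Casp1 followed at 32.8 ± 2.70, Aim2 at 26.8 ± 2.75 and Nlrp3 at 13.2 ± 4.18 CPM per kb. Casp4 was at 8.33 ± 1.67, Nlrp1b at 4.75 ± 1.24 and Nlrc4 at 0.0188 ± 0.0196 CPM per kb. Neighbours in this order overlapped in their ranges over libraries, except that the Aim2 range of 22.1 to 31.3 lay above the Nlrp3 range of 5.74 to 20.1 CPM per kb, and Nlrc4 lay below all others. The order held in ethanol and in saline mice. Per kb of coding length instead, Aim2 at 71.6 lay above Casp1 at 40.7 CPM per kb, and the other ranks stayed as they were. The annotated Pycard transcript is 3800 nt long with a coding part of 579 nt, so its value changed most, to 257 CPM per kb.

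The spread between libraries was unequal too. Over the 9 libraries the coefficient of variation of CPM was 31.7% for Nlrp3, and 1.22% of the 4108 genes within 2-fold of its level varied more. It was 26.1% for Nlrp1b and 20.1% for Casp4, and 9.11% and 32.0% of the genes within 2-fold of their levels varied more. Aim2, Pycard and Casp1 varied by 10.3%, 9.69% and 8.22%, below the medians of 10.8%, 9.94% and 11.4% for genes of their own level.

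**Figure D1:**
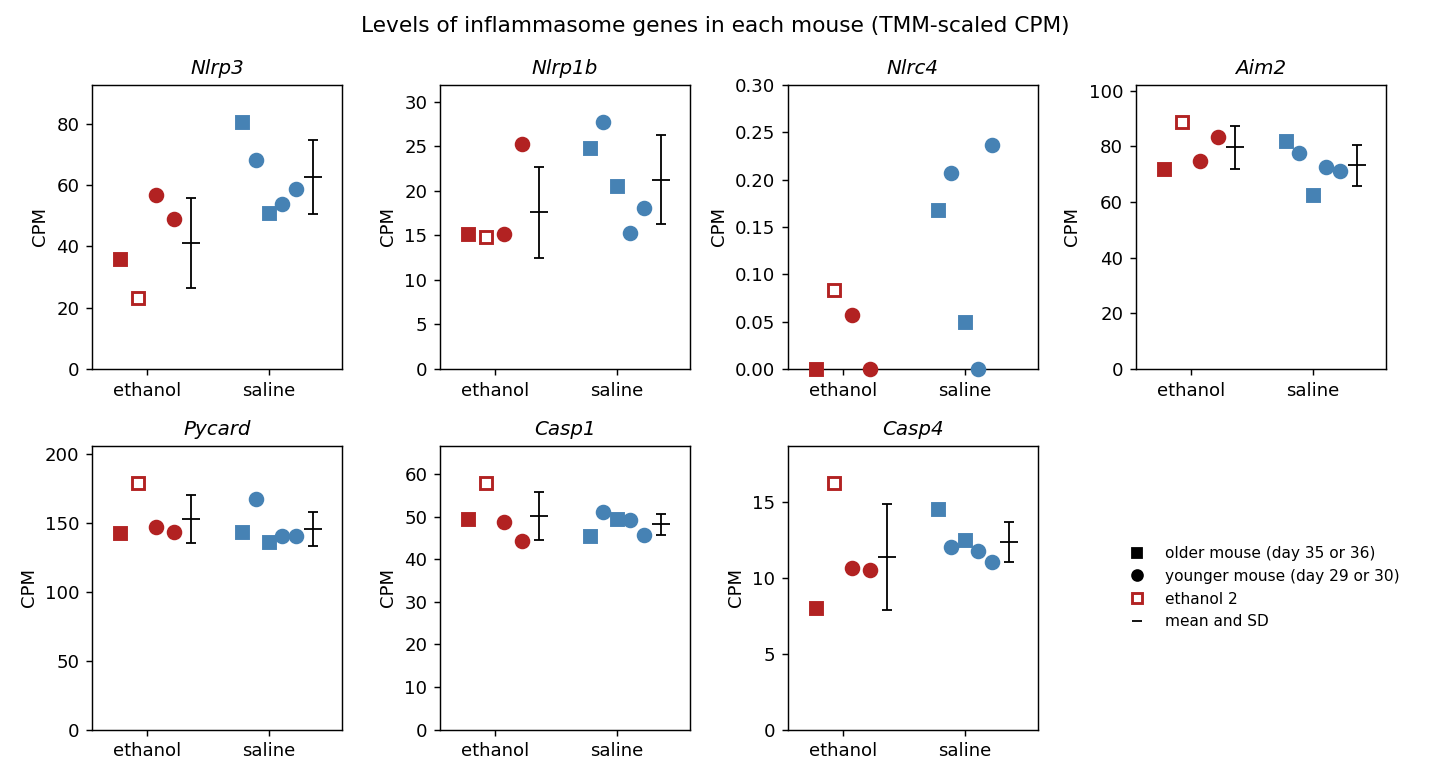
Level of each inflammasome gene in each mouse, as TMM-scaled CPM on a linear axis from 0, for ethanol mice (red, left) and saline mice (blue, right). Squares are older and circles younger mice, the open square is ethanol 2, and the bar gives the mean and SD (not drawn for Nlrc4, at 0 to 6 counts a library). The 2 older ethanol mice have the lowest Nlrp3, and every gene that passed the count filter, Nlrp3 included, overlaps between the groups.

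No member passed the test for ethanol against saline. This was edgeR's quasi-likelihood test with Benjamini-Hochberg adjustment at 0.05, and it called 0% of the 13067 genes tested (386 had an unadjusted p under 0.05). DESeq2 and limma-voom also called 0 genes, with 578 and 504 at an unadjusted p under 0.05. The 6 members that passed the filter on low counts had adjusted p-values between 0.963 and 0.966. Of these 6, Nlrp3 alone had an unadjusted p under 0.05, in the lower direction, in which 1.54% of all genes tested did so. Log2 fold changes (ethanol over saline) were above 0 for 3 members and below 0 for the other 3, with a median of -0.03, against a median of -0.00068 over all genes tested. Without ethanol 2, 1 member was above 0 and 5 were below, with a median of -0.11, against -0.0013 over all genes tested. In bulk libraries, a lower level per cell cannot be told apart from fewer cells that carry the transcript.

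Among the sensors that passed the count filter, Nlrp3 varied most. Nlrp3 (chr11:59541568-59566956, plus strand, GRCm38) encodes the sensor that responds to potassium efflux, crystals and other signs of cell damage. Its level was 35.9, 23.1, 56.7 and 49.0 CPM in ethanol 1 to 4, against 80.7, 68.4, 51.0, 54.0 and 58.8 CPM in saline 1 to 5. Ethanol 1 and 2 lay below every saline mouse, ethanol 4 lay just below the lowest of them, and ethanol 3 lay within their range, so that the groups overlapped. Nlrp3 averaged 41.2 ± 14.8 CPM in ethanol mice (SD, n = 4) and 62.6 ± 12.1 CPM in saline mice (SD, n = 5). The log2 fold change was -0.61 ± 0.24 (SE, 95% interval -1.14 to -0.07), with an unadjusted p of 0.0294 and an adjusted p of 0.963 in edgeR. By p it ranked 192 of 13067 genes.

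Without ethanol 2, Nlrp3 averaged 47.2 ± 10.5 CPM in ethanol mice (SD, n = 3). The log2 fold change was then -0.41 ± 0.17 (95% interval -0.79 to -0.02), with an unadjusted p of 0.0402 and an adjusted p of 1.00 in edgeR. In that comparison 1.44% of 13281 genes were lower at an unadjusted p under 0.05. With saline 1, the highest library, left out as well, the log2 fold change was -0.30 ± 0.15 and the interval reached from -0.62 to 0.03. The interval also reached above 0 without ethanol 1, without saline 1 or without saline 2, each left out alone, with log2 fold changes of -0.54, -0.50 and -0.57.

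Markers of other cells were set beside Nlrp3. Mrc1, the mannose receptor gene of border macrophages, was at 39.8, 37.1, 89.1 and 39.4 CPM in ethanol 1 to 4, against 61.6, 64.6, 45.1, 75 and 65.4 CPM in saline 1 to 5. Ethanol 3 had the highest Mrc1 and the highest Nlrp3 of the ethanol mice, and ethanol 2 the lowest of both. The saline mice were not ordered in that way, with the highest Mrc1 in saline 4 and the highest Nlrp3 in saline 1. Ccr2, a monocyte marker, was highest in ethanol 3, at 15.8 CPM, and was at 6.14 CPM in ethanol 2, within the saline range of 3.51 to 6.73 CPM. The part of these cells in the Nlrp3 values was not tested. RNA integrity numbers were 9.1 to 9.9 in ethanol mice and 9.0 to 9.9 in saline mice.

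Nlrp1b (chr11:71153102-71230733, minus strand) encodes a sensor that, in some mouse strains, is cut by the protease of anthrax lethal toxin. Its level was 15.2, 14.8, 15.1 and 25.3 CPM in ethanol mice, against 24.8, 27.7, 20.5, 15.3 and 18.0 CPM in saline mice. The first 3 ethanol mice lay together just below the lowest saline mouse, and ethanol 4 lay near the top of the saline range. On the log2 scale the fold change was -0.27 ± 0.21 (95% interval -0.74 to 0.19, adjusted p = 0.963 in edgeR). Without ethanol 2 it was -0.20 ± 0.22, and without ethanol 4 it was -0.50 ± 0.19, with an unadjusted p of 0.0227 and an adjusted p of 0.801.

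The mouse genome holds close copies of this gene, so reads may be split between them. Nlrp1a was at 27.9, 25.4, 29.7 and 23.6 CPM in ethanol mice, against 30.9, 32, 22.9, 24.5 and 24.9 CPM in saline mice. The pseudogene Nlrp1c-ps was at 16.5, 12.6, 21.0 and 31.4 CPM in ethanol mice, against 15.1, 27.5, 36.8, 18.9 and 18.8 CPM in saline mice. Ethanol 4 was the highest ethanol mouse for Nlrp1b and for Nlrp1c-ps but the lowest for Nlrp1a. Nlrp1b took 25.4%, 28.0%, 23.0% and 31.5% of the counts of the 3 copies in ethanol mice, against 35%, 31.8%, 25.6%, 26.0% and 29.2% in saline mice. These shares overlapped between the groups.

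Nlrc4 (chr17:74425438-74459142, minus strand) encodes the partner of the NAIP proteins, which recognise bacterial flagellin and secretion systems. It was barely detected. Ethanol libraries held 0, 2, 1 and 0 counts, against 3, 6, 1, 0 and 5 in saline libraries. A count of 0 allows up to 0.234 CPM in ethanol 1, 0.152 CPM in ethanol 4 and 0.167 CPM in saline 4 (3 counts per library). Over all libraries the gene had 3 counts in ethanol mice (95% Poisson interval 0.619 to 8.77) and 15 in saline mice (8.40 to 24.7), a ratio of 0.287 after division by the summed library totals, with an exact interval of 0.0533 to 1.02. Intervals and floors cover counting error only. Nlrc4 did not pass the count filter, and no difference was detectable at this depth.

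Aim2 (chr1:173350879-173466040, plus strand) encodes a sensor of double-stranded DNA in the cytosol. Its level was 71.9, 88.8, 74.6 and 83.4 CPM in ethanol mice, against 81.9, 77.7, 62.7, 72.6 and 71.1 CPM in saline mice. The highest value was that of ethanol 2 and the lowest that of saline 3, and the groups overlapped. Ethanol over saline was 0.12 ± 0.10 in log2 (95% interval -0.09 to 0.34, adjusted p = 0.963 in edgeR), and 0.06 ± 0.09 without ethanol 2.

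The adaptor and caspase-1 were the steadiest members. Pycard (chr7:127989708-127993867, minus strand) encodes ASC, the adaptor that links most sensors to caspase-1. Its level was 143, 179, 147 and 143 CPM in ethanol mice, against 143, 167, 136, 140 and 140 CPM in saline mice. Ethanol 2 and saline 2 stood above the others of their groups. Its log2 fold change was 0.07 ± 0.09 (95% interval -0.13 to 0.28, adjusted p = 0.963 in edgeR) with all mice and -0.01 ± 0.08 without ethanol 2. The annotated gene Gm45205 runs antisense over 485 nt of Pycard exons. Whether the counting used strand is not stated in the sources, and reads of the pair cannot be told apart.

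Casp1 (chr9:5298517-5307265, plus strand) encodes the protease of the platform. Its level was 49.5, 58.0, 48.7 and 44.4 CPM in ethanol mice, against 45.5, 51.1, 49.5, 49.3 and 45.7 CPM in saline mice. Ethanol 2 was the highest and ethanol 4 the lowest of all 9. For Casp1 the log2 fold change was 0.06 ± 0.09 (95% interval -0.15 to 0.26, adjusted p = 0.966 in edgeR), and it was -0.03 ± 0.08 without ethanol 2. The intervals of Aim2, Pycard and Casp1 thus lay within -0.15 and 0.34.

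Casp4 (chr9:5308828-5336783, plus strand) starts 1563 nt after the end of Casp1. In the mouse it encodes caspase-11, which binds bacterial lipopolysaccharide in the cytosol and cuts gasdermin D without a sensor of the NLR kind. Its level was 8.02, 16.3, 10.7 and 10.5 CPM in ethanol mice, against 14.6, 12.1, 12.5, 11.8 and 11.1 CPM in saline mice. Ethanol 2 was the highest of all 9 libraries, while the other 3 ethanol mice lay below every saline mouse. The log2 fold change was -0.12 ± 0.19 with all mice (95% interval -0.52 to 0.29, adjusted p = 0.966 in edgeR).

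Without ethanol 2, Casp4 averaged 9.74 ± 1.49 CPM in ethanol mice (SD, n = 3), against 12.4 ± 1.32 CPM in saline mice (SD, n = 5), and the groups did not overlap. Of all genes tested, 1.29% lay wholly below saline in this way. The log2 fold change was -0.35 ± 0.15 (95% interval -0.67 to -0.02), with an unadjusted p of 0.0381 and an adjusted p of 1.00 in edgeR. With saline 1, the highest saline library, left out as well, it was -0.28 ± 0.15 (95% interval -0.61 to 0.05, unadjusted p = 0.0906 in edgeR). With ethanol 2 kept, and without ethanol 1, which had the fewest Casp4 counts (101), it was 0.02 ± 0.18. The ratio of Casp4 to Casp1 CPM was 0.162, 0.281, 0.219 and 0.237 in ethanol mice, against 0.321, 0.236, 0.253, 0.239 and 0.243 in saline mice. Ethanol 1 was low and saline 1 high, and the groups overlapped.

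**Figure D2:**
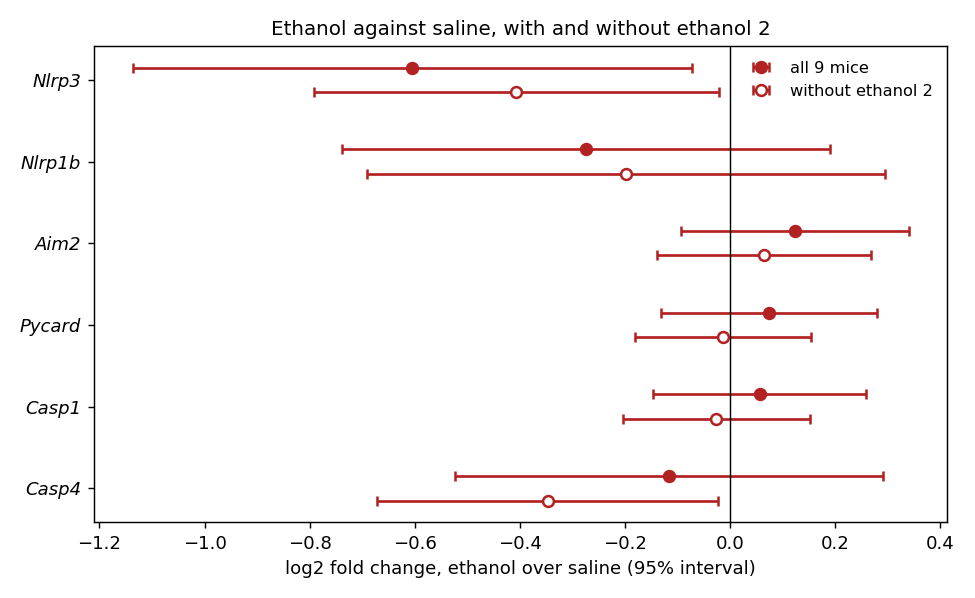
Log2 fold change of ethanol over saline for the 6 genes that passed the count filter, with 95% intervals from edgeR, for all 9 mice (filled) and without ethanol 2 (open). Without ethanol 2, Nlrp3 is at -0.41 (all mice -0.61) and Casp4 at -0.35 (all mice -0.12), and no adjusted p passes 0.05 in either fit.

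Ethanol 2 held an extreme value of every tested member. It was the lowest of the 9 libraries for Nlrp3 and Nlrp1b, and the highest for Aim2, Pycard, Casp1 and Casp4. Being extreme was common in this library, which was lowest for 29.5% and highest for 28.4% of the 8480 genes with a mean of at least 10 CPM. Against the mean of the other 8 libraries, Nlrp3 was at a log2 difference of -1.30 in ethanol 2, and 4.76% of those genes lay lower. Casp4 was at 0.51, and 1.58% of those genes lay higher. The differences were -0.46 for Nlrp1b, 0.25 for Aim2, 0.30 for Pycard and 0.27 for Casp1. As a deviation from the mean of all 9 libraries, Nlrp3 stood at -1.12 (log2) in ethanol 2, where a smooth trend of level on transcript GC content and length was at -0.15 for a gene of its kind. Casp4 stood at 0.47 where the trend was at 0.05. Aim2 stood at 0.23 against a trend of 0.11, Casp1 at 0.24 against 0.07 and Pycard at 0.27 against 0.01. Nlrp1b stood at -0.37 against -0.13. With that trend removed from each library, the log2 fold change of Nlrp3 for ethanol over saline was -0.61 ± 0.22. It was then -0.27 for Nlrp1b, 0.07 for Aim2, 0.06 for Pycard, 0.01 for Casp1 and -0.17 for Casp4.

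**Figure D3:**
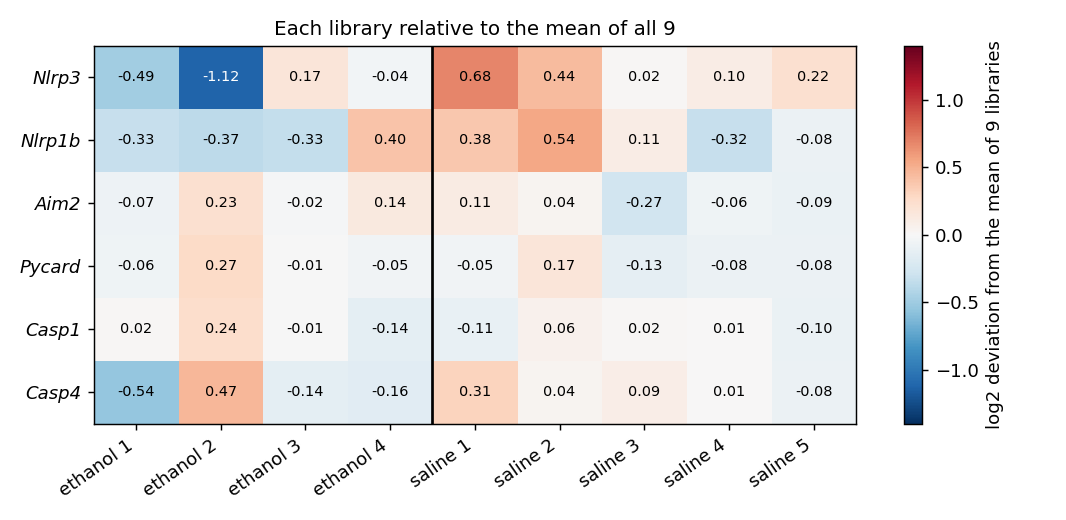
Log2 deviation of each library from the mean of the 9 libraries, for the 6 genes that passed the count filter, with ethanol mice left of the black line and saline mice right of it. Red is above and blue below the mean. Ethanol 2 runs from -1.12 for Nlrp3 to 0.47 for Casp4.

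The members did not vary as a unit across libraries. Over the 9 libraries, which share the extreme library ethanol 2, Pearson's r of log2 CPM was 0.77 between Pycard and Casp1 and -0.71 between Nlrp3 and Casp1. Over the 8 libraries without ethanol 2 these values were 0.39 and -0.20. Nlrp3 and Casp4 had an r of -0.05 over 9 libraries and 0.89 over 8. In those 8, saline 1 was highest and ethanol 1 lowest for both genes. Nlrp3 and Nlrp1b had 0.61 over 9 and 0.55 over 8.

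The genes most like each member were taken from 9150 genes with a mean of at least 5 CPM, by Pearson's r of log2 CPM over the 9 libraries. They are given as a description, since all points share the libraries' depth and composition. Each r is also the highest found in a search of many genes over few libraries. An r over 8 of the same 9 libraries is no separate check. For Nlrp3 they were Rb1 (0.97), Maf (0.97) and Map1s (0.96). Without ethanol 2 their r was 0.92, 0.91 and 0.89 over 8 libraries. For Nlrp1b they were Tm6sf1 (0.94), Cntrob (0.93) and Herc6 (0.92), and for Aim2 Mad2l2 (0.97), Ifitm10 (0.95) and Rbm34 (0.93). For Pycard they were Coro1b (0.96), Cetn3 (0.94) and Stx2 (0.93), where Stx2 had an r of 0.83 without ethanol 2. Psma2 (0.98), Ppp1r35 (0.95) and Ncoa4 (0.94) were most like Casp1, and Emc2 (0.94), Slc35b1 (0.94) and Ypel5 (0.94) most like Casp4. No gene was named for more than 1 member.

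Both treatments were present in the older and in the younger mice, so ethanol was also compared with saline within each cohort. In the older mice, Nlrp3 was at 35.9 and 23.1 CPM in ethanol mice, against 80.7 and 51.0 CPM in saline mice. In the younger mice it was at 56.7 and 49.0 CPM in ethanol mice, against 68.4, 54.0 and 58.8 CPM in saline mice. The groups stood apart in the older mice and overlapped in the younger ones. In older mice alone the log2 fold change was -1.16 ± 0.33, with an unadjusted p of 0.0170 and an adjusted p of 0.988 in edgeR. In younger mice alone it was -0.20 ± 0.13, with an adjusted p of 1.00.

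Nlrp1b was at 15.2 and 14.8 CPM in older ethanol mice, against 24.8 and 20.5 CPM in older saline mice. Its log2 fold change was -0.60 ± 0.21 in older mice (unadjusted p = 0.0301, adjusted p = 0.988 in edgeR) and -0.02 ± 0.30 in younger mice. Nlrp3 and Nlrp1b were thus the 2 of 6 tested members lower at an unadjusted p under 0.05 in the older mice, where 0.922% of 12913 genes were. With 2 mice against 2, 14.9% of all genes lay wholly below saline. In the younger mice Casp4 lay wholly below, at 10.7 and 10.5 CPM in ethanol mice, against 12.1, 11.8 and 11.1 CPM in saline mice, as did 8.43% of all genes. Its log2 fold change there was -0.14 ± 0.18.

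The difference between the cohorts was tested as an interaction of ethanol with age. The cohorts also differ in the library-name suffix, and the part of the suffix in this term was not tested. For Nlrp3 the interaction was -0.97 ± 0.35 (log2, older minus younger ethanol effect), with an unadjusted p of 0.0221 and an adjusted p of 0.972 in edgeR, and 3.24% of genes had an unadjusted p under 0.05. Leaving out any of the 4 older mice leaves 1 older mouse in its group, which is then assumed to vary like the other groups, and such a value is one of that library. The interaction was -0.68 ± 0.32 without ethanol 2 (unadjusted p = 0.0634 in edgeR), -0.60 ± 0.33 without saline 1 and -1.27 ± 0.32 without saline 3. Without ethanol 1 it was -1.28 ± 0.32 with an adjusted p of 0.0490, and ethanol 2 was then the sole older ethanol mouse and 848 genes were called. The other 5 members had interactions between -0.59 (Nlrp1b) and 0.25 (Casp1), with adjusted p-values of 0.972 to 1.00.

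No member passed the test of older against younger mice, with treatment as a covariate, and the test called 0% of genes (372 at an unadjusted p under 0.05). Age and litter cannot be told apart in this test, and the library-name suffix nearly coincides with age. Nlrp3 averaged 47.7 ± 24.8 CPM in older mice (SD, n = 4) and 57.4 ± 7.16 CPM in younger mice (SD, n = 5), a log2 fold change of -0.30 ± 0.23 (older over younger). Casp4 had the next largest value, 0.22 ± 0.18, and the other 4 tested members lay between -0.11 and 0.08. Adjusted p-values were 0.973 to 0.995. Single libraries moved these values. The age effect of Nlrp3 was -0.10 ± 0.18 without ethanol 2 (adjusted p = 1.00 in edgeR) and -0.58 ± 0.18 without saline 1 (adjusted p = 0.949). That of Casp4 was 0.02 ± 0.16 without ethanol 2 and 0.38 ± 0.14 without ethanol 1 (adjusted p = 0.809).

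**Figure D4:**
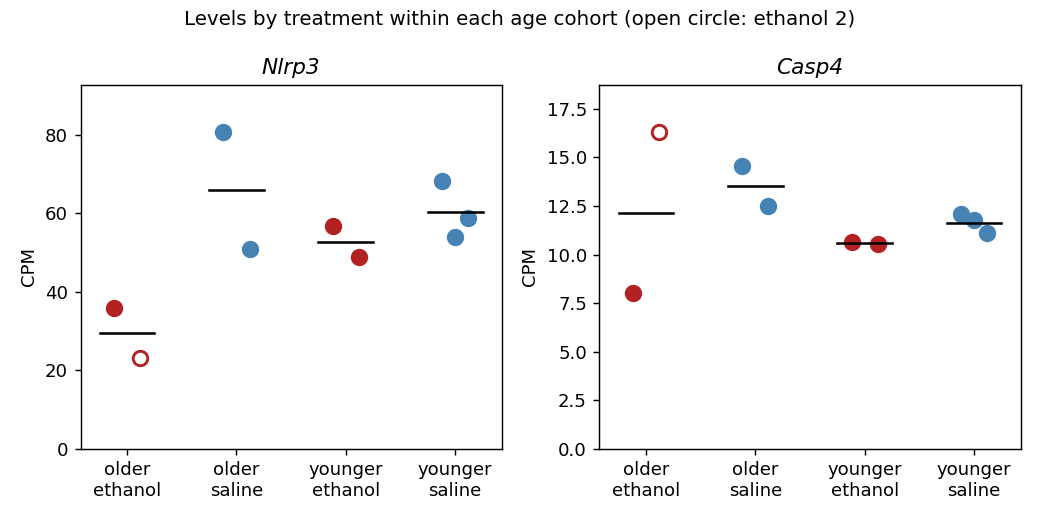
Nlrp3 and Casp4 in CPM by treatment within each age cohort, on linear axes from 0, with 1 point per mouse and a line at the mean. The open circle is ethanol 2. Nlrp3 is at 35.9 and 23.1 CPM in older ethanol mice, below both older saline mice, while ethanol 1 and 2 lie on either side of the older saline mice for Casp4.

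The rest of the pathway was read from 66 genes in 4 lists, of which 54 passed the count filter. No gene of the 4 lists passed the test (adjusted p from 0.963 to 0.999 in edgeR), with 31 log2 fold changes below 0 and 23 above. March7 was the 1 gene with an unadjusted p under 0.05, where 2.95% of all genes tested had one.

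Of 19 other sensors 13 were tested, 10 below 0 and 3 above, with a median of -0.02. These counts were 8 below and 5 above without ethanol 2, with a median of -0.018. The most abundant was Tmem173, which encodes STING, the adaptor of cytosolic DNA sensing, at 714 ± 53.0 CPM in ethanol mice and 670 ± 60.3 CPM in saline mice. The NAIP genes Naip2 and Naip5, the flagellin and secretion-system receptors that act with Nlrc4, were well expressed where Nlrc4 was not. Naip2 was at 75.3 ± 4.67 CPM in ethanol mice and 76.2 ± 12 CPM in saline mice. Naip5 was at 57.7 ± 10.7 CPM in ethanol mice and 63.8 ± 5.27 CPM in saline mice, with a log2 fold change of -0.15 ± 0.12 (-0.035 without ethanol 2). Naip6 had -0.26 ± 0.21 and Nod1, a receptor for bacterial cell wall peptides, -0.22 ± 0.13. Without ethanol 2, where both were at their lowest, these were -0.11 and -0.09, and without ethanol 4 they were -0.48 and -0.26. Nlrp6, Nlrp10, Nlrp12, Nlrc3, Naip1 and Mefv did not pass the count filter.

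All 12 substrates and executioners were tested, 7 below 0 and 5 above, with a median of -0.05. These counts were 9 below and 3 above without ethanol 2, with a median of -0.07. Gsdmd, the gasdermin D gene, was at 142, 191, 137 and 213 CPM in ethanol mice, against 157, 209, 198, 181 and 170 CPM in saline mice. Its groups overlapped and its log2 fold change was -0.10 ± 0.14, from -0.22 without ethanol 4 to -0.0057 without ethanol 3 when 1 library was left out. Casp8, an apoptotic caspase that can also cut gasdermin D, was at 272 ± 28.8 CPM in ethanol mice and 257 ± 13.7 CPM in saline mice. Il1a, the interleukin-1α gene, was at 82.1, 126, 118 and 101 CPM in ethanol mice, against 137, 145, 95.7, 112 and 122 CPM in saline mice. Its log2 fold change was -0.20 ± 0.15, and it was -0.29 ± 0.14 without ethanol 2 and -0.083 without ethanol 1.

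The 2 cytokines that caspase-1 matures were chosen after their values were seen. Il1b was low throughout, at 3.33, 2.82, 1.55 and 2.17 CPM in ethanol mice, against 4.77, 2.90, 2.21, 1.72 and 5.31 CPM in saline mice. The groups overlapped, and the log2 fold change was -0.46 ± 0.37. Il18 was at 27.2, 26.3, 22.6 and 25.5 CPM in ethanol mice, against 25.2, 28.7, 23.6, 28.1 and 25.4 CPM in saline mice, with a log2 fold change of -0.05 ± 0.10.

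Of 10 receptors and decoys 7 were tested, 4 above 0 and 3 below, with a median of 0.04. These counts were 2 above and 5 below without ethanol 2, with a median of -0.05. Myd88, the adaptor of interleukin-1 and Toll-like receptors, was at 102 ± 8.36 CPM in ethanol mice and 99.1 ± 3.84 CPM in saline mice. Irak4, the kinase that acts with it, had a log2 fold change of -0.16 ± 0.10, and Il1rap, the shared receptor chain, 0.09 ± 0.16. Il1r1, the interleukin-1 receptor gene, was at 1.91, 0, 2.69 and 0.148 CPM in ethanol mice, against 1.91, 2.28, 1.47, 2.05 and 1.47 CPM in saline mice. Ethanol 2 and ethanol 4 lay below all saline mice, and the fitted log2 fold change was -0.67 ± 0.88. It was -0.24 without ethanol 2, -0.29 without ethanol 4 and -1.57 without ethanol 3. Il1r2, Il1rn and Il18r1 did not pass the count filter.

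Of 25 activators and regulators 22 were tested, 11 above 0 and 11 below, with a median of 0.01. These counts were 8 above and 14 below without ethanol 2, with a median of -0.05. March7, a ubiquitin ligase gene whose product was reported to send NLRP3 to degradation, was at 86.1, 89.2, 90.4 and 101 CPM in ethanol mice, against 95.8, 122, 95.7, 112 and 103 CPM in saline mice. Its groups overlapped through ethanol 4, and its log2 fold change was -0.21 ± 0.09, with an unadjusted p of 0.0487 and an adjusted p of 0.963 in edgeR. P2rx7, the ATP-gated channel that can trigger NLRP3, was at 404 ± 29.2 CPM in ethanol mice and 409 ± 19.6 CPM in saline mice. Txnip, which encodes a thioredoxin-binding protein linked to NLRP3, was at 683 ± 55.3 CPM in ethanol mice and 645 ± 57.7 CPM in saline mice. Among potassium channel genes, Kcnk13 had a log2 fold change of 0.24 ± 0.13 (0.14 without ethanol 2) and Kcnk6 one of -0.20 ± 0.21 (-0.06 without ethanol 2).

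**Figure D5:**
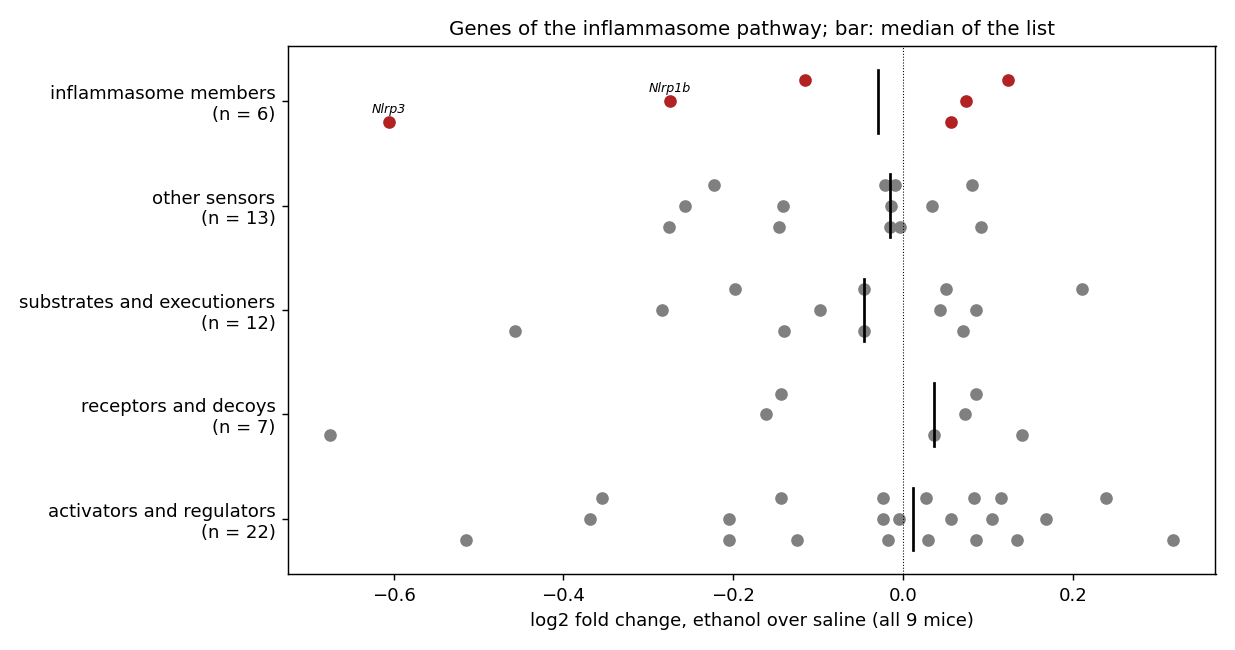
Log2 fold change of ethanol over saline (all 9 mice) for the 6 inflammasome genes that passed the count filter (red) and the tested genes of the 4 pathway lists (grey), with a black bar at the median of each list. Inflammasome genes beyond 0.2 in either direction are named, and the list medians lie between -0.05 and 0.04.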

How the data were processed

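RNA was sequenced from sorted visual cortex microglia of 9 mice, 1 library each. The authors deposited raw counts, whole reads per gene symbol with no normalization. Trimmomatic 0.32, STAR 2.4.2a, HTSeq 0.6.1 and build GRCm38.p4 are named per the submitters' processing notes. No source used here states the use of strand or the annotation release. All 9 sample columns were used.

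From these counts, the filterByExpr step of edgeR (at least 10 counts, total of at least 15) left 13067 of 45664 symbols. Libraries were scaled by TMM, and levels are CPM. Fold changes and p-values came from edgeR 4.0.16 (R 4.3.3), robust quasi-likelihood F test, adjusted by Benjamini-Hochberg over all genes kept. The ethanol comparison took all libraries without a covariate, and was repeated without ethanol 2. Age was tested with treatment as a covariate, and the interaction in a fit with both terms. The p-values measure the spread between mice, sorting and library preparation together. Same-numbered mice did not deviate together, so numbers were not taken as pairs.

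Coordinates and lengths came by symbol from GENCODE M21 on GRCm38, which matched 12408 genes kept (95%), and promoters from RefSeq on GRCm38.p6. The 4 pathway lists and 9 marker lists, like the members, were chosen with earlier results of these data known. From each pathway list, the 3 most abundant genes and the 2 with the smallest p were chosen to be named, and 1 of these is not reported here. Other genes are said to be chosen after their values were seen. Alternatives were DESeq2 1.42.0, limma-voom (limma 3.58.1), RLE scaling, other count filters, leaving libraries out, covariates, single cohorts, a replicate block and a GC content and length trend (loess span 0.3). The fit was also run on simulated counts drawn from its own model. These held no litters and no library like ethanol 2, so that run is no check on such features of the data.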

Additional observations from a re-analysis of the deposited data

Results flagged for a closer look

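Within each group, the highest or lowest mouse was compared with the rest for the 7 inflammasome genes and 18 pathway genes chosen by rule. In 5 of 50 groups of values 1 mouse stood far from the others. Chance flags about 1 in 20 if groups are independent. All genes here share the same libraries, so the count cannot be set against that rate. Nlrp1b was at 25.3 CPM in ethanol 4, while the other ethanol mice were at 14.8 to 15.2 CPM. Pycard was at 179 CPM in ethanol 2, while the other ethanol mice were at 143 to 147 CPM, and at 167 CPM in saline 2, while the other saline mice were at 136 to 143 CPM. Nod1 was at 27.6 CPM in ethanol 2, while the other ethanol mice were at 41.6 to 43.0 CPM. Myd88 was at 89.1 CPM in ethanol 4, while the other ethanol mice were at 105 to 107 CPM. Ethanol 2 and ethanol 4 thus account for 4 of the 5.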

How the results depend on the processing

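No alternative gave an inflammasome gene an adjusted p under 0.05 for ethanol against saline or for age, and the log2 fold change of Nlrp3 for ethanol stayed below 0 in each, from -1.16 in older mice alone to -0.20 in younger mice alone. For age, DESeq2 called 1 gene and the fit with no count filter 97, against 0. The interaction called 0 to 848 genes when 1 library was left out, with 848 and a call of Nlrp3 without ethanol 1.

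Values near 0 changed sign. Without saline 1 and ethanol 2 the ethanol effect was -0.017 for Pycard, -0.044 for Casp1, 0.12 for Naip2, -0.095 for Il1rap and 0.042 for P2rx7. In younger mice alone it was -0.043 for Pycard, -0.070 for Casp1, 0.12 for Naip2, -0.033 for Casp8, -0.011 for Myd88, -0.14 for Il1rap and 0.051 for P2rx7. With limma-voom it was -0.0018 for Casp1, 0.066 for Naip2, -0.044 for Il1rap and 0.024 for P2rx7. It was 0.083 for Naip2 with the library-name suffix as a covariate and 0.038 for P2rx7 with the GC content and length trend removed. The age effect was 0.0086 for Aim2 with no ethanol term and -0.047 for Pycard with limma-voom. With 1 library left out, the ethanol effect ran from -0.014 to 0.13 for Pycard, -0.026 to 0.11 for Casp1, -0.35 to 0.025 for Casp4, -0.060 to 0.082 for Naip2, -0.076 to 0.17 for Il1rap and -0.047 to 0.029 for P2rx7. The age effect ran from -0.24 to 0.092 for Nlrp1b, -0.085 to 0.078 for Aim2 and -0.067 to 0.070 for Pycard, and the interaction from -0.13 to 0.26 for Aim2 and -0.62 to 0.44 for Casp4. The cause of these changes was not tested.

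With the replicate number as a block, 240 genes had an unadjusted p under 0.05 for ethanol (386 without it), none was called, and Nlrp3 was at -0.68. The block put Naip2 at 0.0051 and P2rx7 at 0.0024 for ethanol and Pycard at -0.0083 for age. Deviations of same-numbered mice correlated at -0.054 to -0.010, and no ethanol mouse correlated best with the saline mouse of its number. Counts of 0 to 6 a library limit Nlrc4.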

Other observations

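The following genes were chosen after their values were seen. Ptpn22, a phosphatase gene of immune signalling, was at 6.35, 8.62, 4.70 and 6.52 CPM in ethanol mice, against 7.74, 9.45, 6.92, 7.30 and 10.95 CPM in saline mice. Its log2 fold change was -0.37 ± 0.21 with all mice and -0.54 ± 0.21 without ethanol 2, with an unadjusted p of 0.0215 and an adjusted p of 1.00 in edgeR. Without ethanol 2 its ethanol mice lay wholly below the saline mice, as did 1.29% of all genes tested. The guanylate-binding protein genes, whose products act on bacteria upstream of caspase-11, were expressed at unequal levels. Gbp7 averaged 124 ± 10.2 CPM in ethanol mice and 125 ± 15.0 CPM in saline mice, and Gbp2 9.83 ± 1.2 CPM in ethanol mice and 9.66 ± 2.10 CPM in saline mice. Their log2 fold changes were -0.0054 ± 0.10 and 0.03 ± 0.18.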
